A study of Mus musculus with 6 samples.

Results

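The 321 regions described here are the strong peaks of the first block of a deposited list of Cbp peaks in BM-HPC, a mouse line of blood-forming progenitor and stem cells that was derived from bone marrow. Cbp (CREB-binding protein) had been precipitated with a rabbit polyclonal antibody from crosslinked chromatin, and rabbit IgG served as the non-specific control, with 1 sequenced library each. Both libraries came from the same line (strain C57BL/6-cast in the labels), grown without treatment in medium with human IL-6 (10 ng/ml) and stem cell factor (100 ng/ml), so that they share every condition except the antibody. The 4 RNA samples of flow-sorted bone marrow cells in the series were not analysed here, and these DNA libraries hold no expression from which the labelled cell type could be checked.

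Cbp is a transcriptional co-activator and lysine acetyltransferase without sequence-specific DNA binding of its own. Transcription factors recruit it to enhancers and promoters, where it acetylates histones and other proteins. In the blood system it is known for its part in the maintenance of hematopoietic stem cells. A read count at a region in such an experiment measures how much of that DNA was pulled down with the antibody, and the same count in the IgG library measures the DNA that comes along without it.

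The list holds 4012 rows of 400 bp in 3 blocks, and the first block holds 2422 rows. Each deposited read is an interval of 200 bp, and the value used throughout was the number of interval midpoints, with every distinct interval counted 1 time. Rows on chromosome X or Y (61), and autosomal rows that start below 4 Mb or at 85 to 91 Mb of chromosome 1 (146), were dropped, which left 2215 rows. A strong peak was a row among these with 14 or more Cbp midpoints and 3 or fewer IgG midpoints. This rule kept 321 rows, or 14.5% of those left. The other rows comprised 1410 with fewer Cbp and equally few IgG midpoints, which served for comparison, 97 with enough Cbp but more IgG midpoints (median 5), and 387 with fewer Cbp and more IgG midpoints. The peaks were thus selected on the Cbp and IgG counts inside the rows, and these counts are given as a description only.

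The libraries held 9388703 (Cbp) and 6886428 (IgG) distinct nuclear reads, and a region with no read allows up to 3 reads, which is 0.320 or 0.436 RPM (reads scaled to library depth). Scaled by reads outside the list, the Cbp library was 1.36 times as deep as the IgG library. With 1 library per antibody there is no replicate error. All intervals are exact 95% intervals. Those on reads cover counting error alone, with reads pooled over rows, and hold no spread between peaks. Those on shares of rows take the rows as independent. Where intervals compare Cbp with IgG, they compare 2 libraries and not 2 conditions, and no p-value is given.

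Most strong peaks lay only a little above the threshold. Their Cbp counts ran from 14 to 59 midpoints with a median of 17 and quartiles of 15 and 20, which is 1.49 to 6.28 RPM. There were 148 peaks with 14 to 16 Cbp midpoints, 99 with 17 to 20, 55 with 21 to 29 and 19 with 30 or more. In the IgG library 55 of the 321 peaks held no midpoint, 111 held 1, 88 held 2 and 67 held 3. The comparison rows had a median of 9 Cbp midpoints and 1 IgG midpoint. Counted without repeats where rows share sequence, the strong peaks held 5995 Cbp reads and 486 IgG reads, or 0.0639% and 0.00706% of each library.

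No gap in the counts set the strong peaks apart from the rows below the threshold. Just inside it stood 62 peaks with 14 Cbp midpoints, and just outside it 81 rows with 13. Between 200 and 500 bp from the centre, which the rule did not count, the former had a median of 4 Cbp and 2.5 IgG midpoints and the latter a median of 4 and 3. At the IgG threshold, 67 peaks held 3 IgG midpoints and 39 otherwise fitting rows held 4. Of the rows at 13, the first in position lay on chromosome 1 at 23932500 to 23932899, with 13 Cbp midpoints and 1 IgG midpoint in the row and 2 and 5 beside it. The next lay at 63676443 to 63676842, with 13 and 3 midpoints in the row and 9 and 8 beside it. Rows at 75177323 to 75177722 and at 75518173 to 75518572 held 13 Cbp midpoints each, with 1 and 2 IgG midpoints, and the row at 153134715 to 153135114 held 13 and 2. These rows look like the weakest strong peaks in both libraries, so the threshold marks a level and not a separate class.

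**Figure D1:**
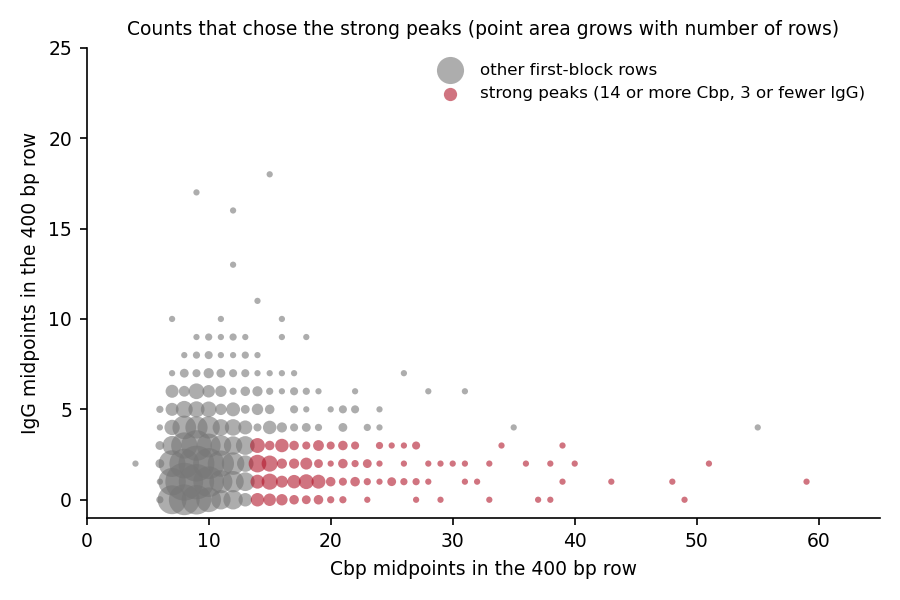
Cbp midpoints (x axis) and IgG midpoints (y axis) in the first-block rows left by position, with point area growing with the number of rows at that pair of counts. Strong peaks are red, and they continue without a gap from the grey rows below 14 Cbp midpoints. The 11 rows beyond 65 Cbp or 25 IgG midpoints lie outside the axes.

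The 12 strong peaks with most Cbp midpoints were spread over 9 chromosomes, and their IgG counts ran from 0 to 3. The first lay on chromosome 8 at 86590559 to 86590958 (build mm9, as for all positions) and held 59 Cbp midpoints and 1 IgG midpoint, or 6.28 and 0.145 RPM. The second lay on chromosome 2 at 134469781 to 134470180, with 51 and 2 midpoints. On chromosome 19 at 4282981 to 4283380 the counts were 49 and 0. The IgG library held at most 2 midpoints at these 3 places.

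Chromosome 13 at 91600504 to 91600903 held 48 Cbp midpoints and 1 IgG midpoint. At 174444030 to 174444429 on chromosome 1 there were 43 and 1. Chromosome 9 at 45820555 to 45820954 held 40 and 2. The first of these 3 also had an empty control beside it, since the IgG library had 0 midpoints from 200 to 1000 bp of its centre and the Cbp library 6.

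Another 2 regions of chromosome 2 belonged to the 12, one at 30513904 to 30514303 with 39 Cbp midpoints and 1 IgG midpoint, and one at 21126808 to 21127207 with 37 and 0. On chromosome 17 at 25998274 to 25998673 the counts were 39 and 3, the highest IgG count of the 12. Chromosome 5 at 115750947 to 115751346 held 38 and 0 midpoints. The counts with no IgG midpoint were set against a floor of 3 IgG reads after scaling. They were 12-fold (chromosome 19), 9.31-fold (chromosome 5) and 9.06-fold (chromosome 2) above it. These folds leave out the counting error of the Cbp reads and are not lower bounds. The lower limits of the exact intervals were 9.4 (chromosome 19), 7.21 (chromosome 5) and 7.01 (chromosome 2).

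The last of the 12 were chromosome 8 at 86722324 to 86722723, with 38 Cbp and 2 IgG midpoints, and chromosome 4 at 148314751 to 148315150, with 36 and 2. The centre of this chromosome 8 peak lay 131765 bp from that of the strongest peak of all, and no other row of the list came between them. Across the strong peaks 30 of 321 (9.35%) had another strong peak within 100 kb.

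Inside the rows the Cbp reads were not heaped at the centre but lay in 2 sharp-edged bands, and the strong peaks shared this form with the weaker rows. In 10 bp bins the density of the strong peaks rose from 19.0 midpoints per kb and row at 150 to 140 bp left of the centre to 75.1 in the next bin. On the right it dropped from 79.4 midpoints per kb at 90 to 100 bp to 19.0 in the next bin. The highest bins were 92.8 midpoints per kb at 90 to 80 bp left and 96.9 at 40 to 50 bp right, with 37.1 to 71.0 between 80 bp left and 40 bp right. The IgG density in the same bins stayed between 1.56 and 6.23 midpoints per kb and showed no such bands.

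The bands were delimited after the profile was seen, as 140 to 80 bp left and 40 to 100 bp right of the centre, so the following values are a description. They covered 30% of the row and held 50.7% of the 6036 Cbp midpoints of the strong peaks, with 1527 on the left and 1531 on the right. In the IgG library the left band held 15% (11.9 to 18.4) and the right band 14.8% (11.7 to 18.2) of 488 midpoints, where an even spread gives 15% each. Over the 20 bp on each side, the drop at the outer edge was 3.51-fold (2.90 to 4.29) on the left and 3.76-fold (3.11 to 4.58) on the right. In the comparison rows these drops were 5.33-fold (4.63 to 6.16) and 4.66-fold (4.08 to 5.33). How the authors placed the rows is not stated in the labels or file, and its part in this form was not tested.

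Reads also lay between the bands, and these in-row reads helped to choose the groups, so their shares are a description. The middle 120 bp held 2049 Cbp midpoints against 3058 in the equally long pair of bands, a density ratio of 0.670 (0.633 to 0.709). The comparison rows had 3316 and 7487, a ratio of 0.443 (0.425 to 0.461). Among the strong peaks the ratio was 0.612 (0.556 to 0.674) at 14 to 16 Cbp midpoints, 0.695 (0.627 to 0.771) at 17 to 20, 0.667 (0.591 to 0.753) at 21 to 29 and 0.788 (0.674 to 0.920) at 30 or more. The intervals of the lowest and highest classes met at 0.674, and those of neighbouring classes overlapped.

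**Figure D2:**
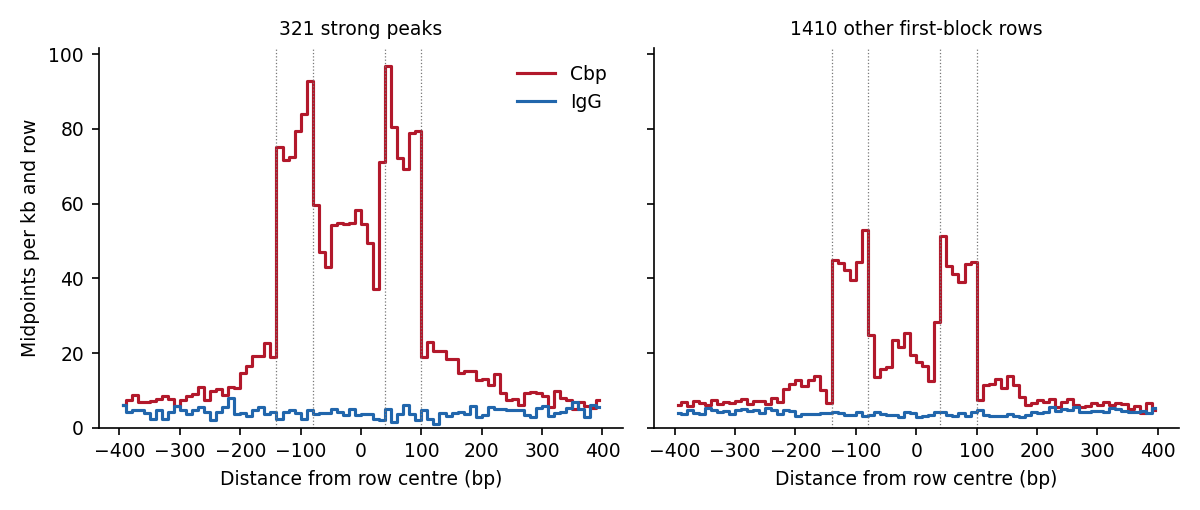
Midpoints per kb and row (y axis) in 10 bp bins by distance from the row centre (x axis), for the strong peaks on the left and the comparison rows on the right, with Cbp in red and IgG in blue. Dotted lines mark the edges of the bands at 140 and 80 bp left and 40 and 100 bp right. Both panels show the bands in Cbp and a flat IgG line.

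Single peaks held the bands in uneven proportion. In 311 of the 321 (96.9%) both bands held a Cbp midpoint, while 5 peaks had none in the left band and 5 none in the right, and the share of a peak's midpoints in the bands ran from 16.7% to 81.1% with a median of 50%. The peak on chromosome 19 at 4282981, the third by Cbp count, had 2 midpoints in the left band, 16 in the right and 19 between them. The balance of the sides differed widely too. Per strong peak, 13.3% to 92.9% of the Cbp midpoints lay left of the centre, with a median of 55.6%. In 291 of the 321 peaks (90.7%) this share was between 25% and 75%, while 20 peaks had more on the left and 10 had less. No peak had all its midpoints on 1 side. The median Cbp midpoint of a peak lay 14 bp left of the deposited centre (quartiles 48 left and 24 right), and in 223 peaks (69.5%) it was within 50 bp of it. In the comparison rows 52.5% were within 50 bp, with a median 14.5 bp left.

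Among the 12 peaks named above, 10 had more Cbp midpoints on the left and 2 on the right. On chromosome 4 at 148314751 the reads stood 30 left to 6 right, and on chromosome 8 at 86722324 they stood 28 to 10. The peak on chromosome 19 at 4282981 went the other way, with 10 left and 39 right. Some peaks near the threshold were more one-sided, as small counts allow. Chromosome 2 at 173485155 to 173485554 held 13 left and 1 right, and chromosome 1 at 182039135 to 182039534 held 2 and 12. These last 2 were chosen after their values were seen.

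The share of midpoints near the centre is likewise a description, since the same reads split the groups. Within 100 bp of the centre lay 68.7% (67.5 to 69.9) of the Cbp midpoints of strong peaks, against 63.7% (62.9 to 64.6) in the comparison rows. The IgG shares were 49.2% (44.7 to 53.7) and 50.1% (47.9 to 52.3), where an even spread gives 50%. The Cbp share was 66.3% (64.3 to 68.3) in peaks with 14 to 16 midpoints and 72.3% (69.0 to 75.5) in those with 30 or more. Single peaks ranged from 35.7% to 100%, and 290 of the 321 were above 50%. The interquartile width of the midpoints was 134 bp in the median peak and ran from 46.5 to 229 bp. Its class medians of 126 to 138 bp showed no steady change with strength.

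**Figure D3:**
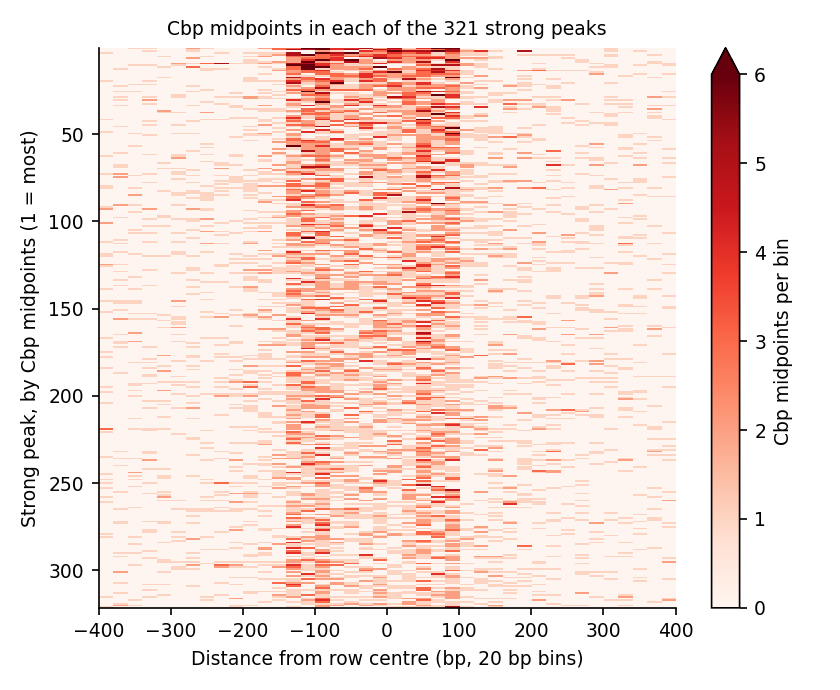
Cbp midpoints in 20 bp bins (colour, saturated above 6) by distance from the row centre (x axis), with 1 line per strong peak ordered by Cbp midpoints (y axis). Bands left and right of the centre show over many lines together, while single peaks vary in how they fill them.

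Beside the rows a Cbp excess over IgG was measurable only within 100 bp of the row's edge. These flanking reads were not counted by the rule, although they come from the same libraries that chose the peaks. At 200 to 250 bp from the centre the strong peaks had 309 Cbp and 150 IgG midpoints, a scaled ratio of 1.51 (1.24 to 1.85). At 250 to 300 bp it was 1.38 (1.12 to 1.72), at 300 to 400 bp 1.11 (0.956 to 1.29) and at 400 to 500 bp 0.949 (0.816 to 1.10). A ratio of 1 means equal shares of both libraries, so an excess over IgG was measurable up to 300 bp from the centre. Beyond it none was measurable at this depth, which does not show that there was none. The Cbp density was 6.98 per kb at 300 to 400 bp and 6.43 at 400 to 500 bp, against 5.20 at 5000 to 10000 bp. The IgG density was 4.61 and 4.99 per kb in these 2 stretches, against 3.95. Intervals are 200 bp long, so reads with midpoints up to 300 bp from the centre still overlap the 400 bp row. The measurable excess over IgG thus lay in reads that reach into the row. The comparison rows stood at 1.21 (1.10 to 1.34) from 200 to 250 bp and at 1.03 (0.934 to 1.15) from 250 to 300 bp, so the nearest stretch was raised there as well.

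Over the whole stretch of 200 to 500 bp the strong peaks had 1408 Cbp and 889 IgG midpoints, or 7.50 (7.11 to 7.90) and 4.74 (4.43 to 5.06) per kb. The scaled ratio was 1.16 (1.07 to 1.27). The comparison rows had 6.2 (6.03 to 6.37) and 4.50 (4.36 to 4.65) per kb, a ratio of 1.01 (0.970 to 1.06). The odds ratio of strong peaks over comparison rows was 1.15 (1.05 to 1.27). The difference lay in the Cbp library, which was 1.21 times (1.14 to 1.28) as dense beside strong peaks as beside the comparison rows, while IgG was 1.05 times (0.977 to 1.13). At 5000 to 10000 bp both libraries were 1.07 times (1.05 to 1.09) as dense around strong peaks.

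From 500 to 2000 bp the ratio turned to the control. At 500 to 1000 bp the strong peaks had 1792 Cbp and 1600 IgG midpoints, a scaled ratio of 0.823 (0.769 to 0.881). It was 0.893 (0.850 to 0.939) at 1000 to 2000 bp, 0.95 (0.922 to 0.978) at 2000 to 5000 bp and 0.966 (0.944 to 0.989) at 5000 to 10000 bp. Comparison rows stood at 0.892 (0.862 to 0.923) from 500 to 1000 bp and at 0.962 (0.951 to 0.974) from 5000 to 10000 bp. For strong peaks over comparison rows, the odds ratio was 0.923 (0.855 to 0.996) at 500 to 1000 bp and 1.00 (0.978 to 1.03) at 5000 to 10000 bp. In this ring the IgG library itself was denser than farther out. Against its level at 5000 to 10000 bp it was 1.20 times (1.12 to 1.28) as dense at 200 to 500 bp, 1.28 times (1.21 to 1.35) at 500 to 1000 bp and 1.14 times (1.09 to 1.18) at 1000 to 2000 bp. The Cbp library was 1.44 times (1.37 to 1.52), 1.09 times (1.04 to 1.14) and 1.05 times (1.01 to 1.09) as dense in these stretches. The control thus had a rise of its own around the strong peaks. Inside the rows such a rise cannot be judged, since the rule holds the IgG counts down to at most 3 midpoints. At 500 to 1000 bp this IgG rise was larger around strong peaks than around comparison rows, by 1.16 times (1.10 to 1.23) in density, against 1.07 times (1.05 to 1.09) at 5000 to 10000 bp.

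**Figure D4:**
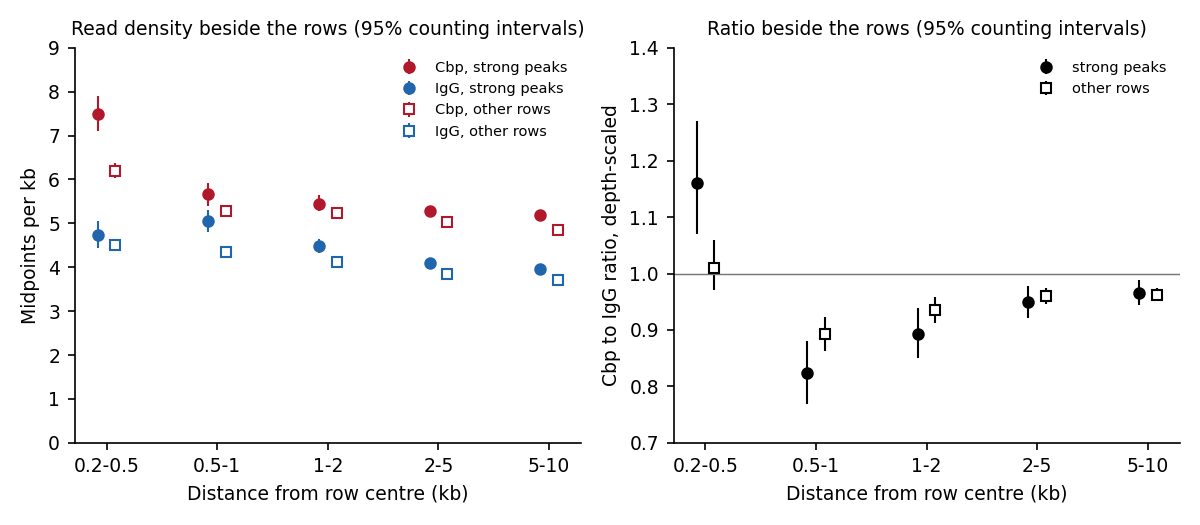
Density of Cbp and IgG midpoints (left, per kb) and their depth-scaled ratio (right) by distance from the row centre in kb, for strong peaks (filled) and comparison rows (open), with 95% counting intervals. The ratio of the strong peaks is 1.16 in the nearest stretch, lowest at 0.823 from 0.5 to 1 kb, and 0.966 at 5 to 10 kb. The axis of the right panel does not start at 0.

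The flank did not grow step by step with the height of the peak. From 200 to 500 bp the scaled ratio was 1.17 (1.03 to 1.32) for peaks with 14 to 16 Cbp midpoints and 1.33 (1.14 to 1.55) for those with 17 to 20. It was 0.891 (0.729 to 1.09) for those with 21 to 29 and 1.44 (1.01 to 2.07) for the 19 with 30 or more. The IgG density in the class of 21 to 29 was 5.76 (4.96 to 6.65) per kb, against 4.31 to 4.66 in the other classes, and its Cbp density was 6.98 (6.09 to 7.96) against 7.40 to 8.44. Peaks with 0 IgG midpoints in the row had an IgG density of 4.70 (3.98 to 5.51) per kb beside it, and peaks with 3 had 4.78 (4.12 to 5.52). These intervals overlapped, and of the 55 peaks with no IgG midpoint inside, 3 also had 0 from 200 to 500 bp.

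Peak by peak, the flanks were thinly covered. A strong peak had 0 to 16 Cbp midpoints at 200 to 500 bp with a median of 4, and 0 to 11 IgG midpoints with a median of 2. In 42 of the 321 peaks (13.1%, 9.60 to 17.3) the scaled Cbp count there was at least 2 times the IgG count plus 1 read, with 3 or more Cbp midpoints. The same call held for 9.07% of the 2215 rows left by position, which include the strong peaks, and for 8.44% (7.04 to 10.0) of the comparison rows. The odds ratio of strong peaks over comparison rows was 1.63 (1.09 to 2.40), with rows taken as independent. At a 3-fold call 15 strong peaks (4.67%, 2.64 to 7.59) were left, beside 3.16% of the 2215 rows and 2.91% (2.09 to 3.92) of the comparison rows, and these intervals overlapped. The reverse call, for IgG over Cbp, held for 29 strong peaks (9.03%, 6.13 to 12.7), beside a background of 10.2%.

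A few strong peaks had many Cbp midpoints from 200 to 1000 bp of the centre. Those from 200 to 300 bp belong to reads that still overlap the row. In 7 there were 20 or more Cbp midpoints in this stretch. How many other rows reach this count is not given, so it is not shown to be particular to strong peaks. The 5 named here were taken by their Cbp midpoints in this stretch. The 4 peaks tied at 20 were ordered by their count inside and then by place in the list. The one with most from 200 to 1000 bp lay on chromosome 1 at 72301645 to 72302044, with 15 Cbp midpoints and 1 IgG midpoint inside and 26 Cbp and 5 IgG midpoints in the flank. Its flank thus held more Cbp reads than the row itself, over a longer stretch (200 to 1000 bp on both sides against 400 bp). The peak on chromosome 8 at 86722324 followed with 22 and 10 flank midpoints, 16 and 6 of them within 500 bp. Chromosome 1 at 79758189 to 79758588 had 17 and 1 midpoints inside and 21 and 13 beside it. That peak shows the other kind of flank, rich in both libraries.

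Chromosome 9 at 21806898 to 21807297 held 25 and 3 midpoints inside and 20 and 7 beside it. On chromosome 11 at 109287385 to 109287784 the counts were 16 and 2 inside and 20 and 12 beside it, with 13 of the Cbp midpoints within 500 bp. Of these 7 peaks, only that on chromosome 8 was also among the 12 with most reads inside. The 12 peaks named first had 5 to 22 Cbp midpoints from 200 to 1000 bp.

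Other peaks at the threshold had few flank reads. Of the 62 peaks with 14 Cbp midpoints, 9 had 1 Cbp midpoint from 200 to 500 bp and none had fewer, and the 5 named are those first in position. On chromosome 6 at 17918715 to 17919114 the row held 14 and 0 midpoints and the flank 1 and 5. On chromosome 7 at 19734896 to 19735295 the row held 14 and 0 and the flank 1 and 3. On chromosome 1 at 183818980 to 183819379 the row held 14 and 3 and the flank 1 and 8. In these 3 the IgG library had more flank midpoints than the Cbp library.

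The remaining 2 lay on chromosome 3 at 133002336 to 133002735, with 14 and 3 midpoints inside and 1 and 2 in the flank, and on chromosome 1 at 182039135, with 14 and 2 inside and 1 and 5 in the flank.

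Strong peaks, like the comparison rows, lay in parts of the genome that both libraries covered more deeply than average. At 5000 to 10000 bp from the centre the Cbp library had 5.20 (5.12 to 5.28) midpoints per kb and the IgG library 3.95 (3.88 to 4.02). The autosomal means were 3.61 and 2.65 per kb, over lengths that include bases no read can be placed on. The levels around strong peaks were 1.44 and 1.49 times these means, and 1.43 and 1.47 times without chromosome 1. In each library 299 of the 321 peaks (93.1%) were above the mean of their own chromosome at that distance. The comparison rows shared this to a lesser degree, with 1.34 and 1.4 times the autosomal means. Among them 83.5% (Cbp) and 81.2% (IgG) of rows were above their chromosome's mean. Over all 2215 rows left by position, which include the strong peaks, these shares were 85.4% (Cbp) and 84% (IgG). The 14 midpoints of the rule are reached more easily where coverage is deep, and its part in the choice of peaks was not tested.

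Repeated reads were more frequent in the strongest peaks, by shares that were not adjusted for the number of reads in a row. Among all Cbp midpoints in strong peaks 5.41% (4.86 to 5.99) repeated an interval already counted, against 2.68% (2.42 to 2.97) in the comparison rows and 3.87% in the nuclear library. The share was 3.73% (2.99 to 4.59) at 14 to 16 midpoints, 4.70% (3.79 to 5.75) at 17 to 20, 5.95% (4.76 to 7.33) at 21 to 29 and 10.7% (8.70 to 13) at 30 or more. For the IgG midpoints in the same peaks it was 11.8% (9.19 to 14.7), and 14.6% in that library. In 146 strong peaks no Cbp interval was repeated, and 1 peak had 12 repeats, the most of any. The strongest peak of all, on chromosome 8 at 86590559, had 66 Cbp midpoints with repeats and 59 without. Without strand in the files, reads of opposite strands that cover the same interval count as repeats.

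Strong peaks seldom lay within 10 kb of each other, but they had another row of the list nearby more often than comparison rows did. The median distance to the nearest other strong peak was 1410682 bp, and to the nearest other row of the whole list 107874 bp. Whether these distances differ from those of as many randomly placed rows was not tested. Another row lay within 10 kb of 44 strong peaks (13.7%) and of 124 comparison rows (8.79%), and within 100 kb of 152 (47.4%) and 525 (37.2%). No strong peak shared sequence with a row of the later blocks, and 16 shared sequence with another first-block row. These 16 are among the 44 with a row within 10 kb, and the matching number of comparison rows is not given. Strong peaks overlapped each other in 3 pairs, so that the 321 rows stand for 318 separate places.

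The closest pair lay on chromosome 4, at 153349110 to 153349509 with 19 Cbp midpoints and 1 IgG midpoint and at 153349230 to 153349629 with 15 and 2. Their centres were 120 bp apart. On chromosome 2, 137 bp separated the rows at 26865298 to 26865697 (18 and 1 midpoints) and 26865435 to 26865834 (14 and 0). On chromosome 1, 167 bp separated those at 37921751 to 37922150 (15 and 2) and 37921918 to 37922317 (19 and 1). The rows of a pair share reads and are not 2 measurements. No other strong peaks lay within 10 kb of each other.

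Groups of 3 or more strong peaks, each within 200 kb of the next, occurred in 2 places, a distance chosen after the data were seen. Both groups had 3 peaks. On chromosome 1 they spanned 182039135 to 182295684 and held 14 to 20 Cbp midpoints each and 8 IgG midpoints in sum. On chromosome 8 they spanned 74764018 to 74999246, with 15 to 19 Cbp midpoints each and 4 IgG midpoints in sum. None of the 12 strongest peaks belonged to either group.

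Strong peaks were found on all 19 autosomes, from 8 each on chromosomes 13, 14 and 15 to 35 on chromosome 1. As a share of the rows left by position, chromosome 1 had 8.47% (5.97 to 11.6) strong peaks among 413 rows, and the other autosomes together had 15.9% (14.2 to 17.6) among 1802. The highest shares were 21.8% (13.7 to 32.0) on chromosome 17 and 21.7% (10.9 to 36.4) on chromosome 18, and chromosome 13 had 8.60% (3.79 to 16.2). Apart from chromosome 1, every autosome had an interval that included the overall 14.5%. Per length, chromosome 17 had 0.199 strong peaks per Mb, chromosome 11 had 0.181 and chromosome 1 had 0.177, while chromosome 14 had the fewest with 0.0639. Chromosome 1 had 4772 Cbp and 3472 IgG reads per Mb, against 3614 and 2651 over all autosomes, and the part of that depth in its many rows below 14 midpoints was not tested.

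**Figure D5:**
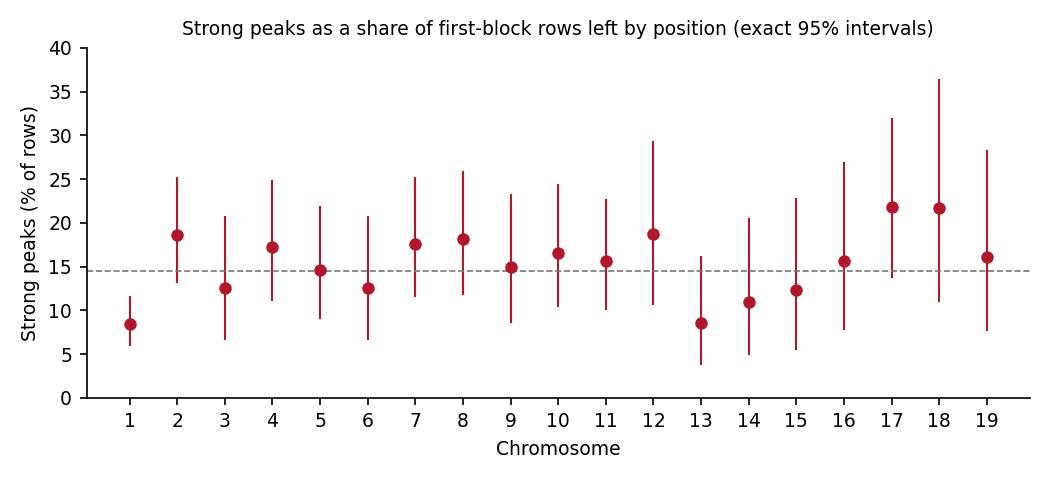
Strong peaks as a percent of the first-block rows left by position on each autosome (points), with exact 95% intervals, and the value of 14.5% over all autosomes as a dashed line. Only the interval of chromosome 1, at 8.47%, lies wholly below the line.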

How the data were processed

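The authors deposited 1 interval file per library and 1 peak list, and the submitters' processing notes name build mm9. Each interval has a chromosome, start and end, and per the files all but 23 (Cbp) and 51 (IgG) are 200 bp long. The aligner, the read filters, any read extension and the peak caller were not given in the sources used here. From these files, midpoints of distinct intervals were counted per row. Flank counts left out every base inside a row of the list. For the pooled flanks of strong peaks and of comparison rows, each read was assigned to the nearest centre within that group. A read can thus count for both groups. Flank counts of single peaks had no such assignment, so peaks close together can share flank reads. Ratios were scaled by 1.36 and have exact conditional binomial intervals, odds ratios exact conditional intervals, densities exact Poisson intervals and shares Clopper-Pearson intervals, all at 95%. Totals were 9388703 Cbp and 6886428 IgG reads. The functions for ratio and odds ratio intervals were tested on simulated Poisson counts without variation between rows. Those for densities and shares were not tested in this way. The peaks, the comparisons and the rules for named regions (the 12 with most Cbp midpoints, the 5 with most flank reads, 5 on each side of the threshold, and pairs within 10 kb) were chosen with earlier results of these data known. Gene names, promoters and sequences need an mm9 annotation and were not used here. Alternatives were repeats kept, other thresholds, other scalings, isolated peaks and peaks without the 20 strongest. Software was scipy 1.17.1, pandas 2.3.3, numpy 2.4.6 and matplotlib 3.10.9 under Python 3.11.15.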

Additional observations from a re-analysis of the deposited data

How the results depend on the processing

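Of 40 alternative values, 37 stayed within the counting interval, quartiles or 1.5-fold range of the main value and 0 turned direction. The flank ratio at 500 to 1000 bp moved from 0.823 to 0.907 when rows with any number of IgG midpoints were admitted (418 rows). The number of peaks with a raised flank fell from 42 to 15 (4.67%) at a 3-fold call, which asks for more and held for 3.16% of all rows left by position. The share within 100 bp of the centre rose from 68.7% to 70.1% at a threshold of 17 midpoints. With 0 IgG midpoints required, 55 peaks were left, and the intervals of both flank ratios (0.939 to 1.43 and 0.721 to 1.01) and of the odds ratio (0.843 to 1.33) then included 1. Leaving out chromosome 1, added after the data were seen, gave a near flank ratio of 1.21. Promoter shares and motifs were not run without an mm9 genome. No paired analysis was possible because only 1 library was analysed per antibody. Depth limits single peaks, whose flanks held a median of 4 Cbp and 2 IgG reads.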

Other observations

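A scan that used no row position, added after the data were seen, set the strong peaks beside the rest of the genome. Windows of 400 bp at steps of 50 bp with 14 or more Cbp and 3 or fewer IgG midpoints, on autosomes and with the same positions dropped, formed 534 separate stretches. Of these, 317 touched a strong peak, 443 a row of the first block and 509 (95.3%) any row of the list. The 25 that touched no row were weak, with a median of 14 and at most 18 Cbp midpoints in the best window. The list comes from the same Cbp reads, so the overlap describes the list and is no support for it. Of the 321 strong peaks, 1 was not reached by the scan because windows began at fixed steps.

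The mirrored rule, set at the depth-scaled counterparts of at least 11 IgG and at most 4 Cbp midpoints, gave 252 stretches, against 534 for the Cbp rule. Of the mirrored stretches, 27 (10.7%) touched any row and 36 lay on chromosome 11, where 40 of the 534 Cbp stretches lay. The strongest mirrored stretch had 48 IgG midpoints, and 20 stretches had 23 or more, which is the scaled level of 30 Cbp midpoints that 22 Cbp stretches reached. At the scaled level of 20 Cbp midpoints the numbers were 58 mirrored and 129 Cbp stretches. The list was made from Cbp reads, so these overlaps too describe the list and are no support for it.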
